A study of Mus musculus with 12 samples.

Results

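Ionotropic glutamate receptor subunits were followed in the medial prefrontal cortex (mPFC) of mice: 10 genes of the 17283 in the deposited table, taken by symbol, all of which passed the filter on low values. They were the AMPA receptor subunits Gria1, Gria2, Gria3 and Gria4, the NMDA receptor subunits Grin1, Grin2a and Grin2b, and the kainate receptor subunits Grik2, Grik3 and Grik5. Total RNA was sequenced in 12 libraries, 3 in each of 4 groups: C57 mice (genotype labelled WT) or BTBR mice (genotype labelled as an inbred strain), each injected intraperitoneally for 7 days with DMSO (vehicle) or with astragaloside IV (a plant saponin, here ASIV). BTBR mice serve as an autism model, and the study asked if the compound benefits their neurotransmission. The labels used here give no dose, age or sex and do not say whether animals were pooled. They call the replicates parallel samples without naming separate animals, so the p-values measure the spread between these samples, which may be technical.

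Ionotropic glutamate receptors are tetrameric channels opened by glutamate and carry most fast excitation in the cortex. AMPA receptors carry the fast current, and the edited Gria2 subunit makes them nearly impermeable to calcium. NMDA receptors need glutamate together with glycine or D-serine and contain the obligatory subunit Grin1 with Grin2 subunits, of which Grin2b dominates early in forebrain development and Grin2a later. Kainate receptors modulate transmission on both sides of the synapse, and Grik5 forms channels only together with subunits such as Grik2 or Grik3.

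The subunits share a short stretch of coding sequence at the end of the third membrane segment, near the channel gate. It is shown as an example of sequence shared between members. Whether reads from such stretches were assigned to more than 1 member was not tested. The sequences are those of the GENCODE M21 transcripts (build mm10), 27 bases each within 1 exon, and capitals mark bases that differ from Gria1.
Gria1: tcatacacagccaacctggctgccttc
Gria2: tcCtacacGgcTaacTtAgctgccttc
Gria3: tcCtacacTgcAaacctTgctgcTttc
Gria4: tcCtacacTgcTaaTctggctgcAttc
Grin1: tcCtacacTgccaacctggcAgccttc
Grin2a: AGTtacacagccaacctggctgccttc
Grik2: tcGtaTacCgcTaacctAgcCgccttT
Grik3: tcCtacacGgccaacctggctgccttc
Grik5: tcCtacacGgccaacctggctgccttc

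Grik3, at chr4:125694042-125694068 on the plus strand, and Grik5, at chr7:25015919-25015945 on the minus strand, carried the same 27 bases here. Of the other members shown, 6 differed from Gria1 (chr11:57283571-57283597, plus strand), by 3 to 7 bases. Over whole transcripts, the longest run shared exactly between members of 1 family was 17 to 59 bases (median 36.5, 12 pairs), the longest being between Gria3 and Gria4. Between members of different families it was 13 to 52 bases (median 17, 33 pairs). Recovered fragments per member and library ranged from 664 (the lowest library of Grik2) to 17929 (the highest of Grik5).

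Levels are in FPKM, fragments per kilobase of exon scaled to library depth. The length covers all annotated exons of a gene, so orders, ratios and shares between genes depend on that annotation. Gria2 (15548 bases of exon) had 6259 to 10057 recovered fragments per library and Gria1 (6043 bases) had 4328 to 7230, although Gria1 had the higher FPKM. The 12 libraries held 16166332 to 18660043 fragments. BTBR vehicle libraries stood apart in their mitochondrial mRNAs, at 0.328 to 0.641% of fragments, against 4.39 to 4.67% in C57 vehicle. They were at 3.02 to 4.54% in C57 ASIV and at 3.00 to 3.22% in BTBR ASIV. Markers of cortical excitatory neurons (Slc17a7, Neurod6, Camk2a) were present in every library, as the tissue label requires, with a summed level of 942 to 1027 FPKM in C57 vehicle, 817 to 845 after ASIV. In BTBR the sum was 698 to 812 FPKM with vehicle and 834 to 884 with ASIV. Markers of striatal neurons (5 genes) summed to 29.9 to 245.5 FPKM and varied from library to library within groups, with 0 of 5 called in any comparison. The deposited table holds no value of 0 for any gene, so no marker in it was at 0 in any library.

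In C57 vehicle the highest level among the members was that of Grik5 (78.6 ± 3.11 FPKM, SD, n = 3), followed by Gria1 (57.4 ± 5.04) and Grin1 (48.0 ± 1.71). Gria2 (29.5 ± 4.64), Gria3 (26.4 ± 3.68) and Grin2b (21.8 ± 2.73) followed, each overlapping the next in its 3 libraries. Grik3 (14.6 ± 1.68) and Gria4 (13.4 ± 1.44) also overlapped. Grin2a (8.45 ± 0.719) and Grik2 (3.34 ± 0.227) were the lowest, each clear of its neighbours. In BTBR vehicle the order was the same at both ends, with Grik5 at the top and Grin2a and Grik2 at the bottom, but Grin2b stood level with Gria4 (both 10.6 FPKM) and below Grik3 (12.8).

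**Figure D1:**
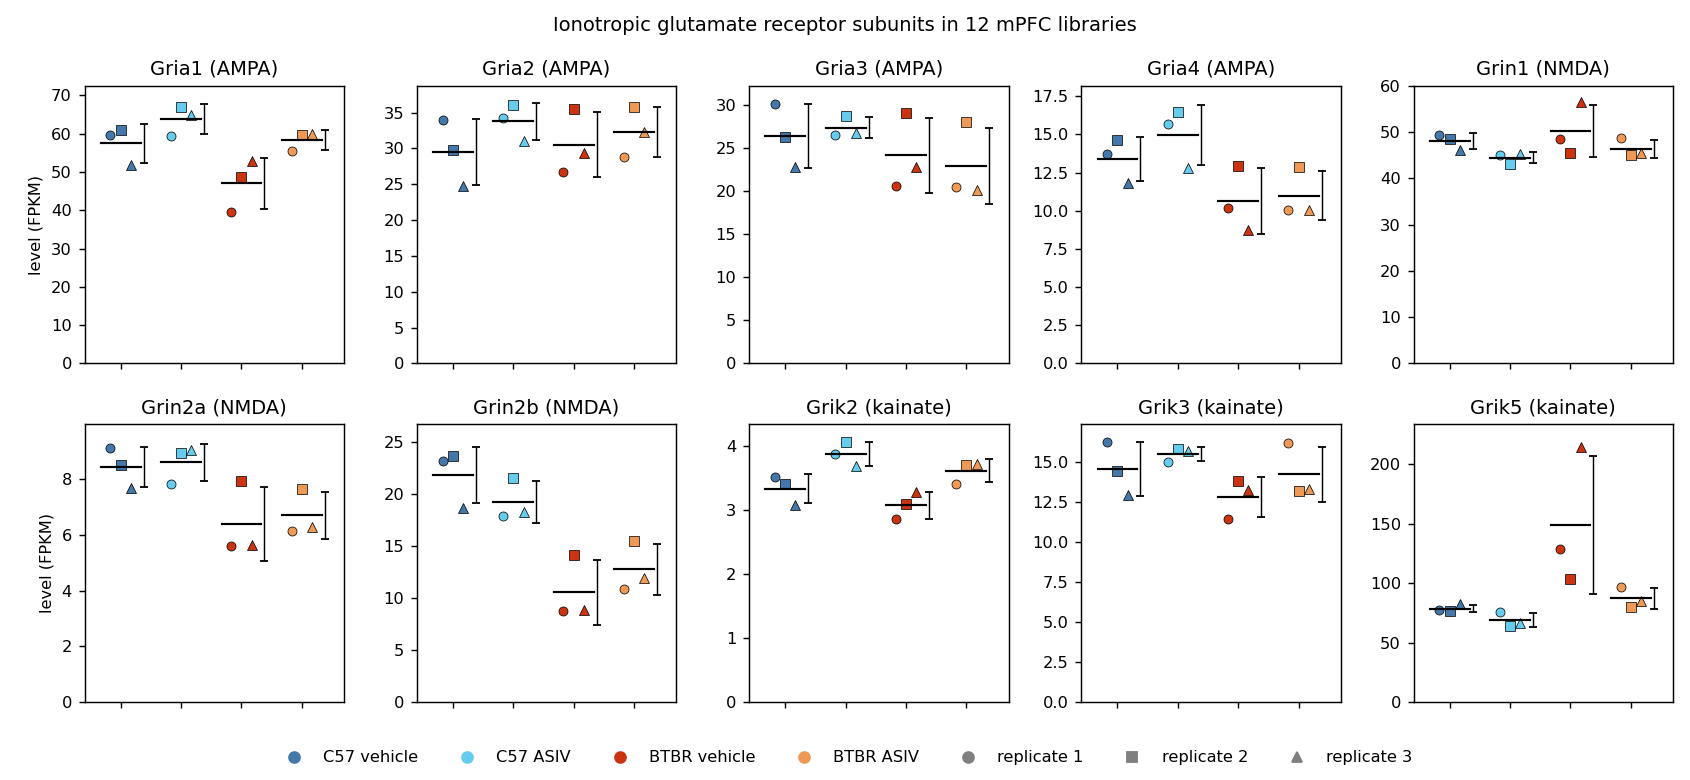
Level (FPKM, axis from 0) of each of the 10 subunits in the 12 libraries; colours give the group, marker shapes the replicate, horizontal lines the mean and bars the SD over 3 libraries. Grin2b was lowest in the BTBR libraries, and Grik5 was highest in BTBR vehicle, where its 3 libraries spread from 103.5 to 214.6.

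The strains were first compared under vehicle. This comparison rests on the BTBR vehicle libraries, so strain and other traits of those samples cannot be told apart in it. Among the subunits, Grin2b and Grin2a were lower and Grik5 was higher in BTBR, and the other 7 did not pass the test. A gene was called where limma's adjusted p, by Benjamini-Hochberg over all 13586 genes tested, was under 0.05, and log2 differences are of FPKM + 1. By this rule 1 member was higher and 2 were lower, while 22.3% of all genes tested were called higher and 20.8% lower (43.1% in all). The members' share of calls was thus not above the background. Only for Grin2b and Grik5, 2 of 10 members, did the libraries of the strains not overlap, against 53.3% of all genes tested. The members' log2 differences had a median of -0.15, and all genes tested a median of 0.01.

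The NMDA receptor subunit Grin2b (chr6:135713233-136173511, minus strand), which slows channel closing and binds CaMKII, was at 23.1, 23.6 and 18.7 FPKM in C57 vehicle, and BTBR vehicle held 8.72, 14.2 and 8.80 FPKM. Each BTBR library was below each C57 library, and replicate 2 was the highest of the BTBR libraries. The log2 difference was -1.01 ± 0.18 (SE, limma adjusted p = 0.000746). Grin2a (chr16:9567898-9995560, minus strand), the subunit of faster receptors of the mature cortex, was at 9.12, 8.53 and 7.69 FPKM in C57 vehicle, and BTBR vehicle held 5.62, 7.93 and 5.66. Here the groups overlapped, because BTBR replicate 2 exceeded C57 replicate 3. The log2 difference was -0.36 ± 0.13 (limma adjusted p = 0.0348). The call was lost in a fit to the groups compared alone (adjusted p = 0.0666) and without C57 vehicle replicate 1 (0.119) or 2 (0.0877) or BTBR vehicle replicate 1 (0.117) or 3 (0.118).

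Grin1 (chr2:25291181-25319187, minus strand), the subunit that every NMDA receptor contains, was at 49.5, 48.4 and 46.1 FPKM in C57 vehicle, and BTBR vehicle held 48.6, 45.6 and 56.5. The groups overlapped, and its log2 difference was 0.06 ± 0.09 (limma adjusted p = 0.635), with a sign that turned when mitochondrial RNA was left out of the scaling. Grin1 overlaps the antisense gene Grin1os (chr2:25291220-25298925, plus strand), listed at 0.927 to 6.68 FPKM. The strand used in counting is not given in the sources used here, so reads of both genes cannot be told apart in the overlap.

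Because Grin2b was lower by more than Grin2a, the Grin2a to Grin2b ratio was higher in BTBR. In C57 mice it was 0.395, 0.361 and 0.412 with vehicle and 0.438, 0.415 and 0.496 with ASIV. In BTBR mice it was 0.645, 0.561 and 0.643 with vehicle and 0.565, 0.495 and 0.531 with ASIV. All 3 BTBR vehicle libraries were above all 6 C57 libraries. BTBR ASIV overlapped both BTBR vehicle and C57 ASIV, each by 1 library. Under vehicle the log2 ratio was higher in BTBR by 0.66 ± 0.09 (SE), with an exact two-sided permutation p = 0.1, the smallest that 3 against 3 libraries can give, and p = 0.267 after adjustment over 8 such tests. Under ASIV the strains differed by 0.24 ± 0.09 (exact permutation p = 0.2). ASIV against vehicle gave -0.22 ± 0.09 in BTBR (exact permutation p = 0.2) and 0.21 ± 0.09 in C57 (exact permutation p = 0.1), all with p = 0.267 after adjustment. None of the 4 ratio comparisons could pass 0.05 in this design. The ratio is taken within a library, so scaling of the whole library cancels. Grin2a and Grin2b transcripts have a GC content of 44.8 and 45.7%. In both BTBR groups replicate 2 had the lowest ratio and also the smallest median of GC-rich minus GC-poor genes (0.00 with vehicle and -0.08 with ASIV, log2; the highest minus the lowest GC quintile, relative to the C57 vehicle mean), and the part of GC content in the ratio was not tested.

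**Figure D2:**
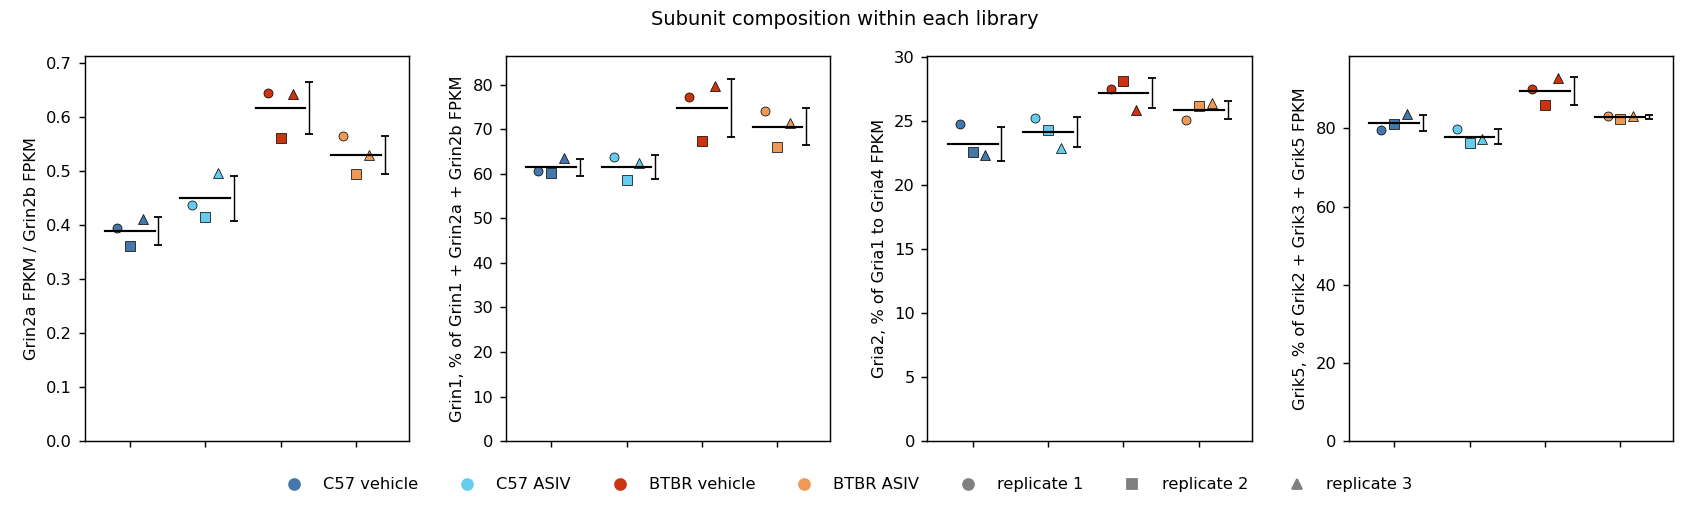
Composition within each library (axes from 0): the Grin2a to Grin2b ratio, and the percentage of summed FPKM held by Grin1 among Grin1, Grin2a and Grin2b, by Gria2 among the AMPA subunits and by Grik5 among Grik2, Grik3 and Grik5; lines are means and bars SDs over 3 libraries. The ratio and all 3 percentages had their highest group mean in BTBR vehicle, 0.616 for the ratio and 74.7%, 27.2% and 89.6% for the percentages.

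Of the summed FPKM of Grin1, Grin2a and Grin2b, Grin1 held on average 61.4% in C57 with vehicle and 61.5% with ASIV, and in BTBR 74.7% with vehicle and 70.5% with ASIV. The sum itself averaged 78.3, 72.3, 67.2 and 65.8 FPKM in that order. These shares follow from the 3 levels above and were not tested.

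Of the AMPA receptor subunits, none passed the test between strains under vehicle. Gria1 (chr11:57011387-57330244, plus strand), whose phosphorylation and delivery accompany synaptic potentiation, was at 59.6, 61.0 and 51.7 FPKM in C57 vehicle, and BTBR vehicle held 39.6, 48.7 and 52.7. Only the highest BTBR and the lowest C57 libraries overlapped. The log2 difference of -0.29 ± 0.11 had an adjusted p of 0.0529 in limma, just outside the threshold. Some other settings called it (0.00488 with scaling to the FPKM sum without mitochondrial genes). Others moved it further from the threshold. Its limma adjusted p was 0.111 in a fit to the groups compared alone. It was 0.147 without C57 vehicle replicate 1, 0.170 without C57 vehicle replicate 2 and 0.203 without BTBR vehicle replicate 1. Gria4 (chr9:4417896-4796234, minus strand), a subunit with rapid kinetics that is prominent in some interneurons, was at 13.7, 14.7 and 11.8 FPKM in C57 vehicle, and BTBR vehicle held 10.2, 12.9 and 8.73. Its groups overlapped, and its log2 difference was -0.32 ± 0.15 (limma adjusted p = 0.0957). It was called with scaling to the FPKM sum without mitochondrial genes (0.0373) and without BTBR vehicle replicate 2 (0.0199). In a fit to the groups compared alone (0.116) and without BTBR vehicle replicate 3 (0.320) Gria4 was not called.

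Gria2 (chr3:80681450-80802835, minus strand) was at 34.0, 29.8 and 24.8 FPKM in C57 vehicle, and BTBR vehicle held 26.7, 35.5 and 29.4, with a log2 difference of 0.05 ± 0.13 (limma adjusted p = 0.791) whose sign turned with the scaling without mitochondrial RNA. Gria3 (chrX:41400854-41678601, plus strand), which assembles with Gria2 in many cortical receptors, was at 30.1, 26.3 and 22.7 FPKM in C57 vehicle, and BTBR vehicle held 20.6, 29.0 and 22.8, with a log2 difference of -0.13 ± 0.15 (limma adjusted p = 0.520). For both genes the libraries of the strains were interleaved. Gria2 made up 24.8, 22.6 and 22.3% of the summed FPKM of Gria1 to Gria4 in C57 vehicle and 27.5, 28.1 and 25.9% in BTBR vehicle. The groups did not overlap, and the difference of 3.95 ± 1.02 percentage points had an exact two-sided permutation p = 0.1 (0.267 after adjustment).

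Among the kainate receptor subunits, Grik5 (chr7:25009849-25072346, minus strand), a subunit with high affinity for kainate, was at 77.3, 76.3 and 82.1 FPKM in C57 vehicle, and BTBR vehicle held 128.6, 103.5 and 214.6. Every BTBR library was above every C57 library, and replicate 3 was far above the others. The log2 difference was 0.85 ± 0.20 (limma adjusted p = 0.00512). Without BTBR vehicle replicate 3 it was 0.55 (limma adjusted p = 0.00495), so that library set much of the size of the difference.

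Grik2 (chr10:49094833-49788766, minus strand), the main subunit of homomeric kainate channels in the forebrain, was at 3.52, 3.41 and 3.08 FPKM in C57 vehicle, and BTBR vehicle held 2.87, 3.09 and 3.29. Grik3 (chr4:125490700-125714173, plus strand), which forms channels of low glutamate sensitivity, was at 16.3, 14.4 and 12.9 FPKM in C57 vehicle, and BTBR vehicle held 11.4, 13.8 and 13.2. The strains overlapped for both. Their log2 differences were -0.09 ± 0.09 (limma adjusted p = 0.431) and -0.17 ± 0.11 (0.234). Of the summed FPKM of the 3 kainate subunits, Grik5 held 81.4% in C57 vehicle, and in BTBR vehicle it held 89.6%.

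**Figure D3:**
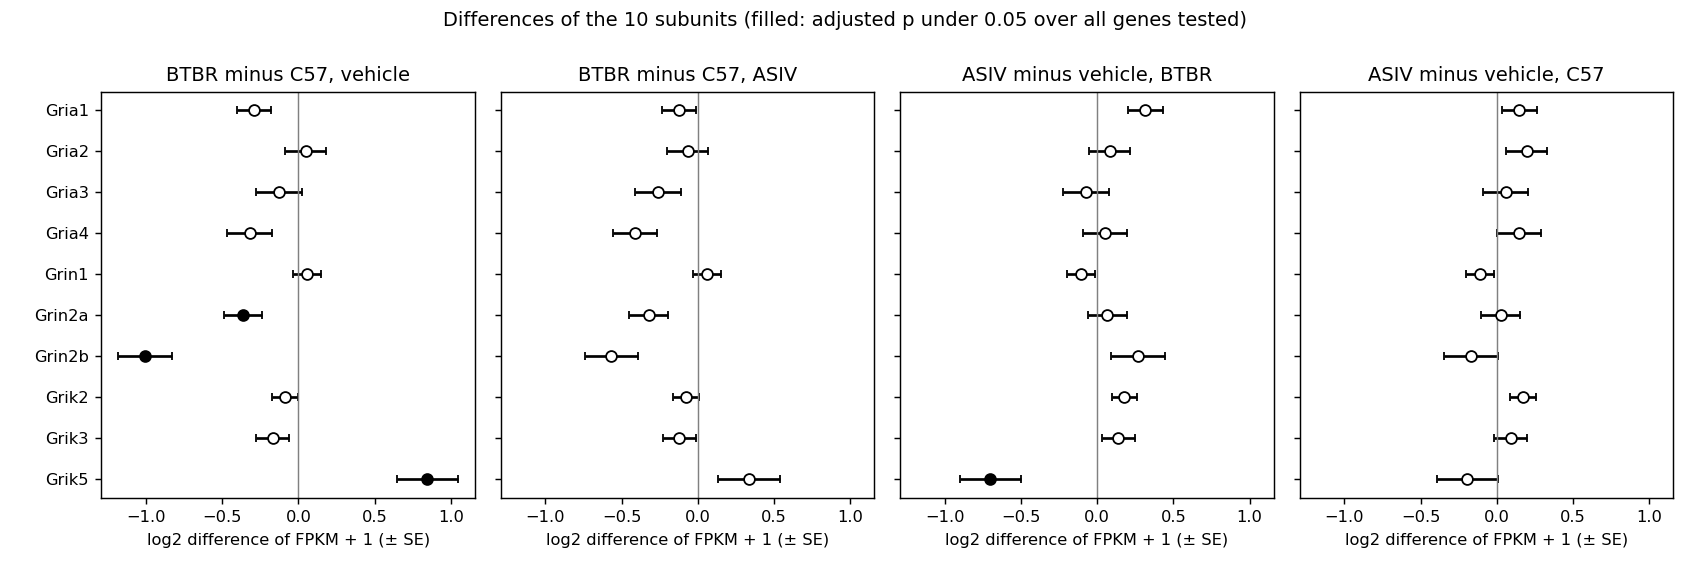
Log2 difference of FPKM + 1 with its SE for each subunit in 4 comparisons, filled where the limma adjusted p over all genes tested was under 0.05. Filled points are Grin2a, Grin2b and Grik5 between strains under vehicle and Grik5 for ASIV in BTBR.

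Several other measures moved with the strain difference under vehicle, and their part in it was not tested. Of the 3 excitatory neuron markers, 2 were called lower in BTBR vehicle (median log2 difference over the 3 of -0.66) and Slc17a7 was not (-0.06 ± 0.13). Of the 3 markers of all neurons (Rbfox3, Snap25, Syt1), 1 was called lower, and their sum was 291 to 381 FPKM in BTBR vehicle and 482 to 556 in C57 vehicle. The 1 called was Snap25, with a mean of 137.7 FPKM in BTBR vehicle and 288.9 in C57 vehicle. Rbfox3 (-0.19 ± 0.11) and Syt1 (-0.30 ± 0.13) were not called. Markers of other cell types were called in mixed directions. Of 4 microglial markers, P2ry12 (log2 difference -1.88 ± 0.16) and Cx3cr1 (-0.91 ± 0.15) were lower and Aif1 (0.78 ± 0.12) was higher in BTBR vehicle. Of 4 astrocyte markers, Aldh1l1 was higher (0.70 ± 0.12) and Aqp4 lower (-0.81 ± 0.20). Mog was higher among 4 oligodendrocyte markers (1.12 ± 0.32), and Slc32a1 was lower among 3 inhibitory neuron markers (-0.89 ± 0.14). Cldn5 was higher among 3 endothelial markers (0.66 ± 0.15), whose sum was 90.7 to 118.3 FPKM in BTBR vehicle and 64.4 to 74.2 in C57 vehicle. Most of that sum was Cldn5 (mean 88.3 against 55.2 FPKM), and Pecam1 (-0.13 ± 0.14) and Flt1 (0.07 ± 0.14) were not called. In bulk tissue, fewer cells of a type and less RNA per cell cannot be told apart.

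Transcript GC content moved with the group as well. Over all genes tested, the median log2 difference between strains under vehicle ran from -0.04 in the lowest quintile of GC content to 0.13 in the highest quintile. Grik5 (61.7% GC) and Grin1 (59.4%) lay in the highest quintile, and Grin2a and Grin2b in the second quintile. Against the C57 vehicle mean, the median of the highest quintile minus that of the lowest was 0.18, 0.00 and 0.33 on the log2 scale in BTBR vehicle replicates 1, 2 and 3. These replicates stood in the same order for Grik5, and replicate 2 had the highest Grin2b. By exon length, the median was 0.06 in the shortest quintile and -0.04 in the longest, which held all members except Gria1, Gria4 and Grik5, themselves in the fourth quintile.

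**Figure D4:**
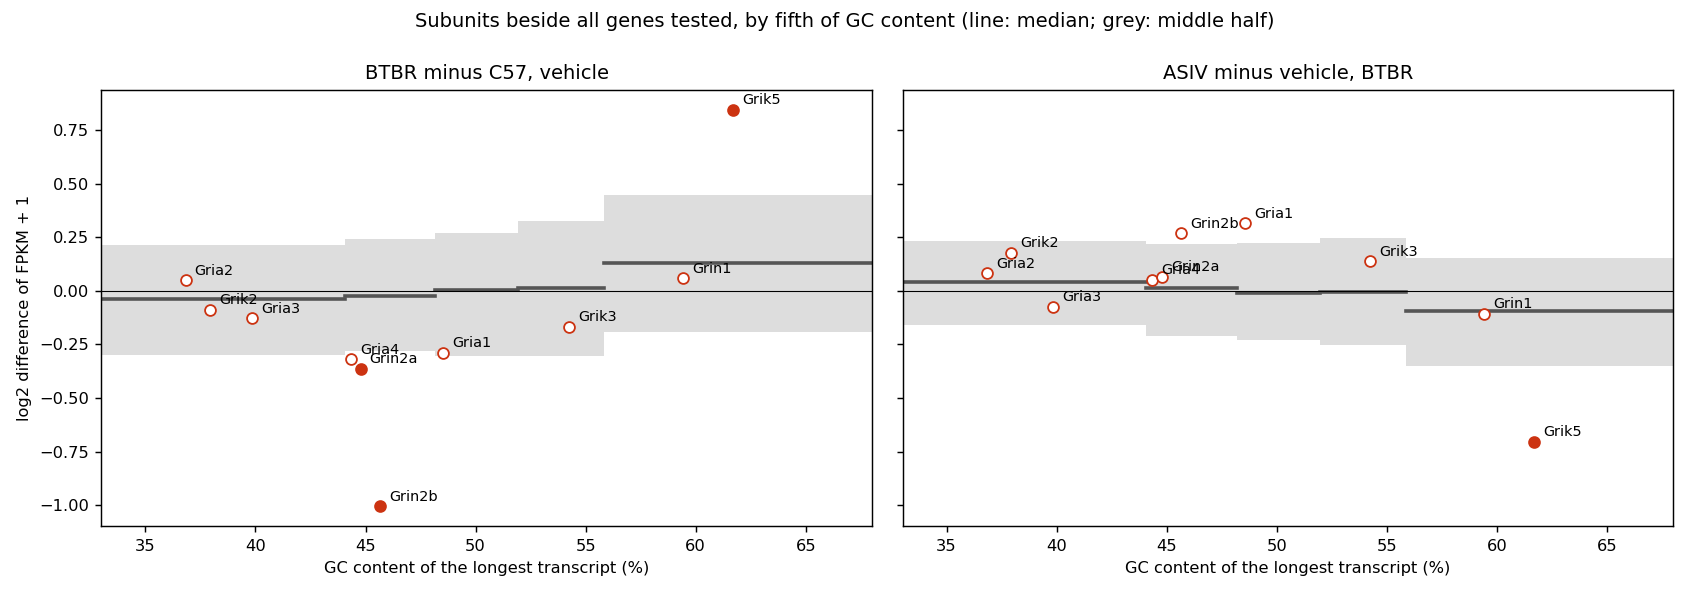
Log2 difference of FPKM + 1 against the GC content of the longest transcript (%); red points are the subunits, filled where called, and grey bands with lines give the middle range (25th to 75th percentile) and median of all genes tested in each quintile of GC content. Between strains under vehicle, Grik5 lies above the band and Grin2b, Grin2a and Gria4 below it. For ASIV in BTBR, Grik5 lies below the band and Gria1 and Grin2b just above it.

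The comparison of ASIV with vehicle in BTBR addressed the effect of the compound in the model strain. Grik5 was lower with ASIV, and the other 9 subunits did not pass the test. That is 0 members called higher and 1 lower, where 13.7% of all genes tested were called higher and 15.4% lower (29.1% in all). This comparison shares the BTBR vehicle libraries with the strain comparison under vehicle. Groups did not overlap for Gria1, Grik2 and Grik5, or 3 of 10 members, against 39.1% of all genes tested. Cell type markers were called here too, and their part in the result was not tested. Camk2a (log2 difference 0.52 ± 0.12), Slc32a1 (1.03 ± 0.14), P2ry12 (1.65 ± 0.16) and Cx3cr1 (0.47 ± 0.15) were higher with ASIV. Aif1 (-0.76 ± 0.12), Cldn5 (-0.81 ± 0.15), Mog (-1.004 ± 0.32) and Aldh1l1 (-0.61 ± 0.12) were lower. The sum of excitatory neuron markers was 698 to 812 FPKM with vehicle and 834 to 884 with ASIV. Of these markers only Camk2a was called, while Slc17a7 (-0.28 ± 0.13) and Neurod6 (0.25 ± 0.20) were not.

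Grik5 was at 96.4, 79.64 and 84.97 FPKM in BTBR ASIV, below the 103.5 to 214.6 of BTBR vehicle and above the 75.5, 64.2 and 66.3 of C57 ASIV. The log2 difference from BTBR vehicle was -0.70 ± 0.20 (limma adjusted p = 0.0204). It was -0.41 without BTBR vehicle replicate 3, still called (0.0311). The call was lost without BTBR ASIV replicate 2 (0.0637) or 3 (0.0541), in a fit to the 2 groups alone (0.0864) and with scaling to the FPKM sum without mitochondrial genes (0.0501). Over all genes tested, the median log2 difference in this comparison was 0.04 in the lowest and -0.09 in the highest quintile of GC content, the quintile that holds Grik5.

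Gria1 was at 55.5, 59.8 and 60.0 FPKM in BTBR ASIV, each above the highest BTBR vehicle library and within the range of the C57 libraries. Its log2 difference from BTBR vehicle was 0.32 ± 0.11 with an adjusted p of 0.0505 in limma. Gria1 was called with median-ratio scaling (0.0317) and in a voom fit of recovered fragments (0.0142). In a fit to the groups compared alone (0.133) and without BTBR vehicle replicate 1 (0.170) it was not called. The same held without BTBR ASIV replicate 2 (0.118) or 3 (0.122). Grik2 was at 3.41, 3.72 and 3.73 FPKM in BTBR ASIV, also above each BTBR vehicle library, with a log2 difference of 0.18 ± 0.09 (limma adjusted p = 0.133). It was called with scaling to the FPKM sum without mitochondrial genes (0.0294) and with voom (0.0398).

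Grin2b was at 10.9, 15.5 and 11.9 FPKM in BTBR ASIV, overlapping BTBR vehicle and below every C57 library. The log2 difference from BTBR vehicle was 0.27 ± 0.18 (limma adjusted p = 0.275). Without BTBR vehicle replicate 2 it was 0.48 and called (0.0297). Grin2a, at 6.15, 7.67 and 6.30 FPKM in BTBR ASIV, differed from BTBR vehicle by 0.07 ± 0.13 (limma adjusted p = 0.727).

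The remaining members stayed within 0.14 of BTBR vehicle on the log2 scale in either direction. In BTBR ASIV, Gria2 was at 28.8, 35.7 and 32.4 FPKM, Gria3 at 20.5, 28.1 and 20.2, Gria4 at 10.02, 12.9 and 10.1, Grin1 at 48.7, 45.0 and 45.6, and Grik3 at 16.2, 13.2 and 13.3. All of them overlapped BTBR vehicle. Their adjusted p in limma ran from 0.367 (Grik3) to 0.819 (Gria4).

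For ASIV against vehicle in C57 mice, no member was called, and 0.0% of all genes tested were called by limma. At an unadjusted p under 0.05, 0 of the members and 417 of all genes tested passed, and voom also called 0 genes. The members' log2 differences ran from -0.19 (Grik5) to 0.20 (Gria2), each with an adjusted p of 1.00. Gria1 was at 59.4, 66.9 and 64.9 FPKM in C57 ASIV, Gria2 at 34.3, 36.0 and 31.0, Gria3 at 26.5, 28.7 and 26.8, and Gria4 at 15.7, 16.4 and 12.8. Grin1 was at 45.1, 43.1 and 45.3, Grin2a at 7.84, 8.94 and 9.06, and Grin2b at 17.9, 21.5 and 18.3. Grik2 was at 3.89, 4.08 and 3.69, and Grik3 at 15.0, 15.8 and 15.7. Groups did not overlap for Grin1, Grik2 and Grik5, or 3 of 10 members, against 13.1% of all genes tested. Grik2 was above vehicle in all 3 ASIV libraries of both strains, with C57 and BTBR log2 differences of 0.17 and 0.18, neither of which passed the test.

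Under ASIV, no member differed between strains at the threshold, while 2.53% of all genes tested were called (1.31% higher and 1.22% lower in BTBR). At an unadjusted p under 0.05, Grin2b, Gria4 and Grin2a passed in limma, 3 members, against 2614 of all 13586 genes tested. Voom called 0 members after adjustment. Gria4 had a log2 difference of -0.41 ± 0.15 (limma adjusted p = 0.151), and its strains overlapped. Grin2b (log2 difference -0.57 ± 0.18, limma adjusted p = 0.114), Grin2a (-0.32 ± 0.13, 0.191) and Grik5 (0.34 ± 0.20, 0.379) kept the sign they had under vehicle, and for these 3 the strains did not overlap, against 26.2% of all genes tested. Without BTBR vehicle replicate 2, Grin2b was called (adjusted p = 0.0306), although that library is in neither group and enters only through the shared estimate of the spread.

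The interaction asked whether the effect of ASIV differed between strains. It called 0 members, while 14.3% of all genes tested were called (6.91% positive and 7.36% negative). At an unadjusted p under 0.05 in limma, 0 members and 4031 of all 13586 genes tested passed. Voom also called 0 members. The largest were Grik5 (-0.51 ± 0.28, limma adjusted p = 0.257) and Grin2b (0.44 ± 0.25, 0.265). Without BTBR vehicle replicate 2, the Grin2b interaction was 0.65 and called (0.0479). A different effect of ASIV in the strains was thus not shown for any subunit with all 12 libraries.

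Other genes of the receptor system were counted from lists that were drawn up with earlier results of these data known, so their counts are a description. Beside each count stand the shares of all genes tested that were called, 43.1% between strains under vehicle and 29.1% for ASIV in BTBR. Both comparisons share the BTBR vehicle libraries, so opposite signs of a gene in them are not independent results. Of the 8 other ionotropic subunits listed, 6 were tested, with 1 higher and 1 lower in BTBR under vehicle and 1 higher with ASIV in BTBR. Grid1, a delta receptor subunit that binds cerebellins at synapses, was at 13.2, 12.3 and 11.7 FPKM in C57 vehicle, and BTBR vehicle held 6.97, 8.70 and 7.30. The log2 difference was -0.63 ± 0.11 (limma adjusted p = 0.000829), and no libraries overlapped. With ASIV it was at 9.96, 10.2 and 12.2 FPKM in BTBR, higher than in BTBR vehicle by 0.44 ± 0.11 on the log2 scale (0.0109). Grin2d, an NMDA receptor subunit with slow kinetics, was higher in BTBR vehicle, at 5.93, 5.74 and 11.0 FPKM against 3.36, 4.48 and 4.67 in C57 vehicle (log2 difference 0.68 ± 0.20, limma adjusted p = 0.0165). The highest Grin2d value came from replicate 3, the library that was also highest for Grik5. Grin2c, Grin3a, Grik1 and Grik4 did not pass.

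The auxiliary subunits, which set the gating and surface delivery of AMPA and kainate receptors, included members called in each direction. In BTBR under vehicle, 3 of 16 were higher and 5 lower, against 22.3% and 20.8% of all genes, and the list median was -0.14 on the log2 scale. Cacng3, a transmembrane AMPA receptor regulatory protein, was at 42.4, 40.7 and 39.2 FPKM in C57 vehicle, and BTBR vehicle held 15.6, 22.3 and 16.4. All BTBR libraries lay far below C57, with a log2 difference of -1.15 ± 0.17 (limma adjusted p = 0.000278). Frrs1l, needed for AMPA receptor assembly in the endoplasmic reticulum, differed by -0.84 ± 0.16 (0.00114), Shisa7 by -0.54 ± 0.10 (0.00129) and Cacng7 by -0.52 ± 0.09 (0.000727). The 3 called higher were Neto1 (0.51 ± 0.12, 0.00519), Cnih2 (0.35 ± 0.12, 0.0372) and Cacng8 (0.32 ± 0.12, 0.0474). Frrs1l was the 1 auxiliary subunit called between strains under ASIV, at 53.7, 60.8 and 55.0 FPKM in C57 ASIV and 29.3, 41.6 and 29.6 in BTBR ASIV (log2 difference -0.75 ± 0.16, 0.0265). With ASIV in BTBR, 3 of the 16 were higher and 3 lower, against 13.7% and 15.4% of all genes. Shisa7 and Shisa9 rose by 0.53 ± 0.10 (0.00277) and 0.57 ± 0.14 (0.00865) on the log2 scale and Shisa6 by 0.32 ± 0.10 (0.0345), and Gsg1l fell, with a log2 difference of -0.47 ± 0.11 (0.00807).

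Of 13 scaffold and trafficking genes, 1 was higher and 4 lower in BTBR under vehicle, and 2 were higher and 1 lower with ASIV in BTBR. The list thus held no larger share of called genes than the 43.1% and 29.1% over all genes. Dlg2, a scaffold of the postsynaptic density, had the smallest p of the list in both comparisons, with log2 differences of -0.68 ± 0.10 (limma adjusted p = 0.000251) and 0.66 ± 0.10 (0.000685). Pick1, which binds the tail of Gria2 and promotes its removal from the surface, was at 2.58, 2.84 and 2.68 FPKM in C57 vehicle, and BTBR vehicle held 4.63, 4.33 and 5.52. The groups did not overlap, and the log2 difference was 0.65 ± 0.10 (limma adjusted p = 0.000342). In BTBR ASIV, Pick1 was at 3.42, 3.18 and 2.75 FPKM, lower than BTBR vehicle by a log2 difference of -0.50 ± 0.10 (0.0033). Nsf, which also binds Gria2 and stabilises it at synapses, moved the other way, from a mean of 91.2 FPKM in C57 vehicle to 56.7 in the BTBR vehicle group, a log2 difference of -0.68 ± 0.12 (0.00059). With ASIV it was at 73.3 FPKM in BTBR, 0.37 ± 0.12 above vehicle on the log2 scale (0.0296). Epb41l1, which links Gria1 to the cytoskeleton, was lower in BTBR vehicle (-0.26 ± 0.09, 0.036).

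**Figure D5:**
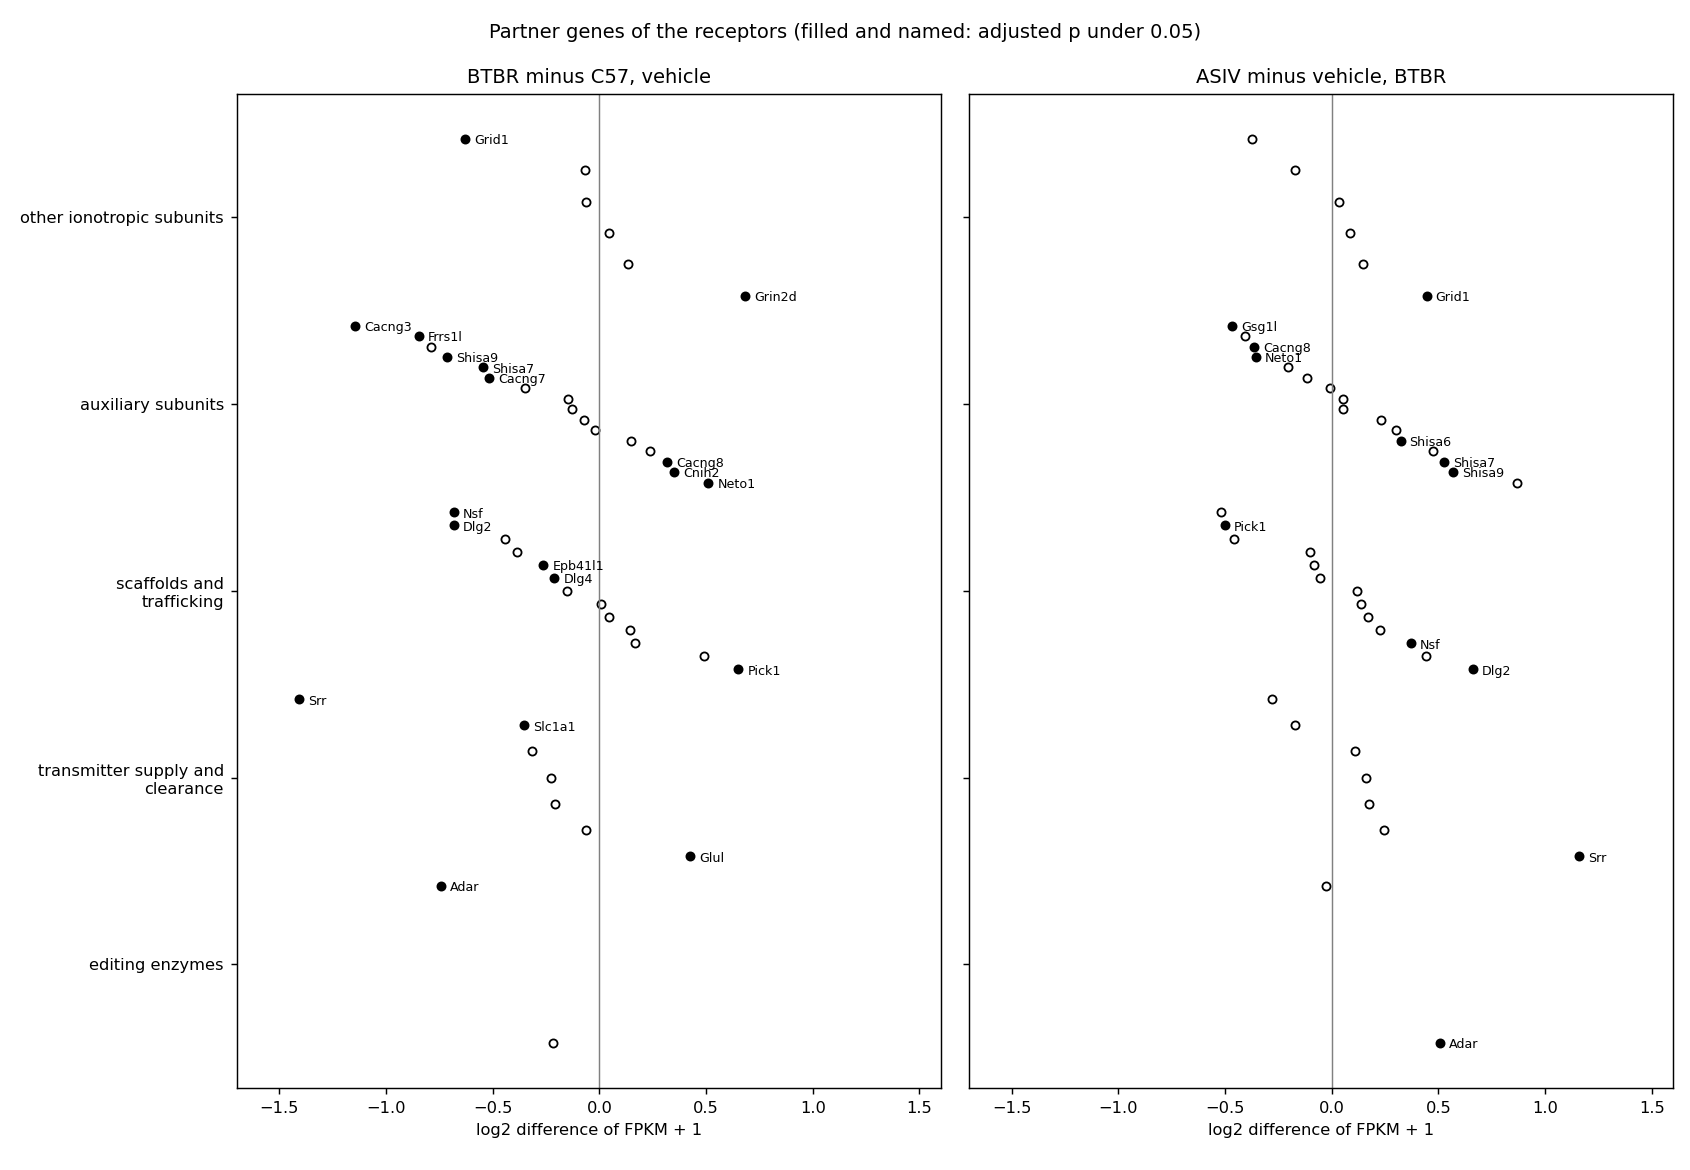
Log2 difference of FPKM + 1 for the tested genes of 5 lists of receptor partners, ordered by value within each list, filled and named where the limma adjusted p was under 0.05. Srr had the largest difference in both panels, -1.41 between strains under vehicle and 1.16 for ASIV in BTBR.

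Among 7 genes of transmitter supply and clearance, 1 was higher and 2 lower in BTBR under vehicle, and 1 was higher with ASIV in BTBR, again no more than in proportion to all genes (43.1% and 29.1% called). Srr, the serine racemase that makes the NMDA receptor co-agonist D-serine, was at 10.5, 10.3 and 9.82 FPKM in C57 vehicle, and BTBR vehicle held 3.56, 3.30 and 2.86. In BTBR ASIV it was at 7.84, 8.78 and 8.73 FPKM, clear of both groups. The log2 difference was -1.41 ± 0.09 between strains under vehicle (limma adjusted p = 1.17e-06) and 1.16 ± 0.09 for ASIV in BTBR (2.37e-05). Under ASIV the strains differed by -0.22 ± 0.09 (0.223). Glul, the glutamine synthetase of astrocytes, was higher in BTBR both under vehicle (0.43 ± 0.11, 0.00622) and under ASIV (0.46 ± 0.11, 0.0376). Slc1a1, a neuronal glutamate transporter, was lower in BTBR vehicle (-0.35 ± 0.12, 0.0355).

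Of the 2 editing enzymes, Adar was at 18.2, 18.9 and 13.8 FPKM in C57 vehicle. In BTBR it was at 8.99, 9.97 and 10.01 FPKM with vehicle and at 13.3, 15.0 and 14.1 with ASIV. The BTBR vehicle libraries were below all the others. The log2 difference was -0.74 ± 0.11 between strains under vehicle (limma adjusted p = 0.00023) and 0.51 ± 0.11 for ASIV in BTBR (0.00478). Adarb1, the enzyme that edits the calcium site of Gria2, was not called in either comparison (-0.22 ± 0.12, limma adjusted p = 0.154, and -0.03 ± 0.12, 0.891). Editing itself was not measured here. For ASIV in C57, no list member was called.

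Across the 12 libraries, some members varied together, as a description with no test and with points that share groups and depth. Pearson's r was 0.95 between Grin2a and Grin2b, 0.90 between Gria1 and Grik2, 0.83 between Grin1 and Grik5, and -0.81 between Grin2b and Grik5. Within BTBR vehicle, replicate 2 was the highest library for 6 of the 10 members and replicate 3 for the other 4, Gria1, Grin1, Grik2 and Grik5. Of 11882 protein-coding genes searched, Syt9 (r = 0.95), Pigg (0.94) and Dnajc6 (0.94) had profiles most like the mean of the members. The gene most like a single member was Ppp1r16a for Grik5 (r = 0.99), Prkce for Grin2a (0.98), Arhgap32 for Grin2b (0.98), Crtac1 for Gria3 (0.97), Pip5k1a for Gria1 (0.96), Zmat4 for Gria4 (0.95), Tra2b for Grik2 (0.93), Ascc2 for Grin1 (0.93), Clstn2 for Grik3 (0.88) and Xkr4 for Gria2 (0.87).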

How the data were processed

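The authors' deposited table holds FPKM, with 1 column per library; HISAT2 2.0.5 and the mm10 genome are named in the submitters' processing notes. Neither the counter nor the annotation, strand or filter is given in the sources used here. Identifiers were matched to GENCODE M21 (17273 of 17283). With M21 exon lengths, whole fragments were recovered from the FPKM values: 97.6 to 97.9% of values under 50 fragments were whole within 0.02, and 95.7 to 95.8% of all values. A limma voom fit of these fragments called 2973 genes higher and 2851 lower in BTBR under vehicle, where the FPKM fit called 3026 and 2832.

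Genes that reached an FPKM of 1 in 3 of the 12 libraries were tested on log2(FPKM + 1) with limma 3.58.1 in R 4.3.3 (4 group means, 8 residual degrees of freedom, eBayes with trend and robust), with Benjamini-Hochberg adjustment over all genes tested. This scale understates changes of low genes. Ratios and shares were compared by exact two-sided permutation. Python 3.11.15 with scipy 1.17.1 was used. The fit was tested on simulated data with independent noise and few changed genes. Many more genes were called in the data here, so the simulation does not show the error rate of the fit in them.

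The members and lists were chosen with earlier results of these data known. All members were named, up to 4 genes of each list with the smallest p in a comparison, and the genes most alike by Pearson's r. The auxiliary subunits called higher in BTBR under vehicle were named beside these. The GC description, the individual naming of marker genes and 1 scaling (depth without mitochondrial fragments) were chosen after seeing the data. Alternatives covered pseudocount, filter, scaling, voom, the groups fitted, the replicate number and leaving out each library. Some items of the lists and sequences are not reported here.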

Additional observations from a re-analysis of the deposited data

How the results depend on the processing

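Grin2b and Grik5 were called between strains under vehicle in every setting run, at -1.22 to -0.90 and 0.55 to 1.07 with 1 library left out. The number of members called between strains under vehicle was 3. It was 5 with FPKM rescaled to the sum without mitochondrial genes and 5 with the replicate number as a block (each time with Gria1 and Gria4 gained), and 2 to 4 with 1 library left out. Between strains under ASIV it was 0, but 2 with the block (Gria4 and Grin2b), and 0 to 1 with 1 library left out (1 without BTBR vehicle replicate 2). For ASIV in BTBR it was 1. With the FPKM sum without mitochondrial genes it was 2, Gria1 and Grik2, both higher, and Grik5 was not called (limma adjusted p = 0.0501). The number was also 2 with median-ratio scaling, depth without mitochondrial fragments or the block (Gria1 higher and Grik5 lower), 3 with voom and 0 with only the groups compared. With 1 library left out it was 0 to 2 (0 without BTBR ASIV replicate 2 or 3, 2 without BTBR vehicle replicate 2 or 3). For the interaction it was 0, and 0 to 1 with 1 library left out (1 without BTBR vehicle replicate 2). The cause of these moves was not tested. The replicate numbers did not pair the samples: same-numbered libraries correlated at -0.17 to 0.28 in their deviations from group means (18 pairs), others at -0.37 to 0.22 (36 pairs). The FPKM sum without mitochondrial genes moved the median of all genes from 0.01 to -0.10 between strains under vehicle (2024 higher and 3702 lower, against 3026 and 2832) and from -0.01 to 0.12 for ASIV in BTBR (3025 and 1120, against 1864 and 2090). For the interaction it gave 1261 higher and 570 lower, against 939 and 1000. With it, the signs of Gria2 (-0.082) and Grin1 (-0.075) between strains under vehicle and of Gria3 (0.075) and Grin1 (0.046) for ASIV in BTBR turned, none of them called. With depth without mitochondrial fragments Gria2 (-0.010) and Grin1 (-0.0027) turned between strains under vehicle, and the split there was 2571 higher and 3244 lower. Other uncalled signs turned with 1 library left out: between strains under vehicle Gria2 (-0.067 to 0.15) and Grin1 (-0.028 to 0.12), under ASIV Gria2 (-0.14 to 0.012), for ASIV in BTBR Gria2 (-0.0072 to 0.19), Gria3 (-0.22 to 0.061), Gria4 (-0.069 to 0.19) and Grin2a (-0.022 to 0.21), and for ASIV in C57 Gria3 (-0.040 to 0.15) and Grin2a (-0.033 to 0.085). Fitted alone, the BTBR groups gave 1111 genes higher and 1147 lower with ASIV. With 1 library left out, calls over all genes between strains under ASIV ran from 50 higher and 49 lower (without C57 ASIV replicate 2) to 353 and 291 (without BTBR vehicle replicate 2), against 178 and 166, and those of the interaction fell to 614 and 552 without C57 vehicle replicate 2. Leaving out 1 library of the groups compared did not turn the sign of the difference in the Grin2a to Grin2b log2 ratio or in the Gria2 share in any of the 4 comparisons. Scaling of a whole library cancels in both, so the scaling settings could not turn it. With 3 libraries a group, small differences were not detectable.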
